A study of Mus musculus with 8 samples.

Results

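The cytosolic ribosomal protein genes were taken from a table of read counts per gene in Ly6C-high monocytes of the mouse bone marrow. Members were the rows whose symbol names a small subunit protein (Rps and a number, or Rpsa) or a large subunit protein (Rpl and a number, or Rplp0, Rplp1 and Rplp2), without names containing -ps, the ending of pseudogene symbols. The rule found 87 of the 15566 genes listed. It took in 77 canonical genes, 31 of the small and 46 of the large subunit, 5 paralogs (Rps27l, Rpl22l1, Rpl7l1, Rpl39l and Rpl3l), and 5 loci that GENCODE M21 annotates as pseudogenes (Rps4l, Rpl6l, Rpl32l, Rps3a2 and Rps3a3). It did not take in Fau and Rpl36al, among others, which also encode proteins of the ribosome and are given beside the members. In all 83 members passed the filter on low counts and were tested, including all 77 canonical genes, 3 paralogs and 3 pseudogene loci.

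Polyadenylated RNA was sequenced from 8 libraries, 4 from LysMDCommd10 mice, called deficient here, and 4 from littermate Commd10fl/fl controls of matched weight. All mice were untreated C57BL/6 males, 8 weeks old. The cells were sorted from femur and tibia as living CD45+ CD11b+ CD115+ CD117- Ly6C-high Ly6G- cells. The Commd10 gene encodes a member of the COMM domain family, which takes part in endosomal sorting. LysM-Cre is placed in the Lyz2 gene and is active in monocytes, macrophages and neutrophils, so deletion is not restricted to the sorted cells. All deficient mice and no controls carried Cre, so that deletion of Commd10 and presence of Cre cannot be told apart. The comparison asks how the transcriptome of these monocytes differs in mice with the deletion, here for the genes of the translation machinery. The labels do not say whether any animals were pooled for a library.

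Library totals were 14231121 to 31040255 counts in controls and 17099454 to 30722262 in deficient libraries. Commd10 fell from 29.2 ± 1.46 to 21.3 ± 2.17 counts per 1000000 counts (CPM; SD, n = 4 each; edgeR adjusted p = 0.0292), and Lyz2 fell by 1.02 on the log2 scale (adjusted p = 2.51e-06). The counts are per gene and do not show from which exons the remaining Commd10 reads come. Cre had 0 counts in all 4 controls, where 3 counts would be 0.0973 to 0.211 CPM, and 499 to 987 counts in the deficient libraries. All 11 monocyte markers were in the table, and their summed level was 12452 to 13136 CPM in controls and 12412 to 13172 CPM in deficient libraries. Markers of neutrophil precursors summed to 1533 to 2080 CPM in controls and 1839 to 3171 CPM in deficient libraries, and 8 of 8 tested were above the control level without passing the test. Erythroid markers summed to 418 to 737 CPM in controls and 260.2 to 489 CPM in deficient libraries, with 8 of 8 tested below the control level and none past the threshold. Both sums overlapped between groups. Other marker lists leaned as well, with none past the threshold. Estimates were above 0 for 0 of 6 B cell, 1 of 7 stem and progenitor and 2 of 8 dendritic cell markers. They were above 0 for 1 of 6 eosinophil, basophil and mast cell, 3 of 7 macrophage and 7 of 10 neutrophil markers. The numbers in the sample titles separate the genotypes, with all controls before all deficient samples, so whatever order they mark and genotype cannot be told apart.

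Each ribosome joins a small subunit, which reads the messenger RNA, to a large subunit, which links amino acids, and cells make the proteins of both in near equal numbers. Mammalian ribosomal protein genes are known for a start site within a run of pyrimidines, the terminal oligopyrimidine (TOP) motif, through which mTOR signalling and the RNA-binding protein LARP1 govern their translation. A message level as measured here does not report how much protein is made from it.

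The start regions of 6 members are shown because they differ in whether and where they hold a pyrimidine run: Rps6, whose product is phosphorylated downstream of mTOR, the paralogs Rps27l, Rpl22l1 and Rpl7l1, and the partners Rps27 and Rpl22. Sequences are from RefSeq on GRCm38.p6, 80 bases before and 20 bases from the annotated start, in the direction of transcription. Capitals mark unbroken runs of at least 8 pyrimidines within 50 bases of the start, and the ETS-factor motif CCGGAAG.
Rps6, - strand, chr4:86857348-86857447: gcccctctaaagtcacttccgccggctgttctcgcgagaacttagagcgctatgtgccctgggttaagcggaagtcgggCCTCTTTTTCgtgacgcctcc
Rps27, - strand, chr3:90213629-90213728: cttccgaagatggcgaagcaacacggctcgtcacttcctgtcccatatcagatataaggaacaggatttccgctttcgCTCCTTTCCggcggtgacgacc
Rps27l, + strand, chr9:66946006-66946105: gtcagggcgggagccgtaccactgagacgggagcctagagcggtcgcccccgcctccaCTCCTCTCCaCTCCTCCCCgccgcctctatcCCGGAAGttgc
Rpl22, + strand, chr4:152325646-152325745: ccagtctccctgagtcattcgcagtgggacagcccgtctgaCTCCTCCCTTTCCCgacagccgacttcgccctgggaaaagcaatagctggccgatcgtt
Rpl22l1, + strand, chr3:28805428-28805527: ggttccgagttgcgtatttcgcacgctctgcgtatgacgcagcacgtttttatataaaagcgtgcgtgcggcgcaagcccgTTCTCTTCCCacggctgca
Rpl7l1, - strand, chr17:46782637-46782736: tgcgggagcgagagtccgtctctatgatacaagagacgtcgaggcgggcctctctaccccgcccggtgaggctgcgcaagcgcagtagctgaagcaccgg
In Rps6 a run of 10 pyrimidines began 1 base before the annotated start, and in Rps27 a run of 9 began 2 bases before it. Rpl22l1 had a run of 10 beginning 1 base after the start, with the letters tataaa upstream of it. The nearest runs of Rps27l, each of 9 pyrimidines, began 22 and 12 bases before the start, and that of Rpl22, of 14, began 39 bases before it. These positions depend on the annotated start. The start used lay 127 bases from that of the GENCODE principal transcript for Rpl22, 72 for Rpl22l1 and 45 for Rps6. It lay 3 bases from it for Rps27 and 0 for Rps27l and Rpl7l1. Rpl7l1 had no run of this length in the window.

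RefSeq promoters were matched for 63 of the 87 members. The start used lay up to 891 bases, in Rps15a, from that of the GENCODE principal transcript. A pyrimidine run of at least 8 bases within 50 bases of the start was present in 84.1% of these members and in 35.6% of the 27025 genes with a promoter. Over the full 300 bases and on both strands, CCGGAAG was present in 38.1% of members and 9.18% of all promoters, AAGATGG, a YY1 motif, in 14.3% and 6.52%, and GGGCGG, an SP1 motif, in 58.7% and 36.1%. The TATA motif TATAAA was present in 11.1% of members and 14.2% of all promoters. An ETS match overlapped a pyrimidine run in 1 member. These are matches of letters, not sites shown to be bound.

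Ribosomal protein messages made up a little over 3% of all counts in every library. The share was 3.38%, 3.19%, 3.19% and 3.25% in the 4 controls and 3.05%, 3.35%, 3.27% and 3.21% in the 4 deficient libraries. The lowest value and the next to highest were both from deficient mice, and the groups overlapped. The means were 3.25% ± 0.0890 and 3.22% ± 0.125 (SD, n = 4 each), a difference of -0.0310 percentage points, less than either SD. Small subunit genes took 1.42% ± 0.0400 of counts in controls and 1.41% ± 0.0553 in deficient libraries, and large subunit genes 1.84% ± 0.0489 and 1.82% ± 0.0698. The ratio of small to large subunit counts lay between 0.770 and 0.777 in all 8 libraries. In sorted cells sequenced in bulk, fewer cells of a type and less RNA per cell cannot be told apart, so a share of counts is relative to the other messages of the same cells.

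**Figure D1:**
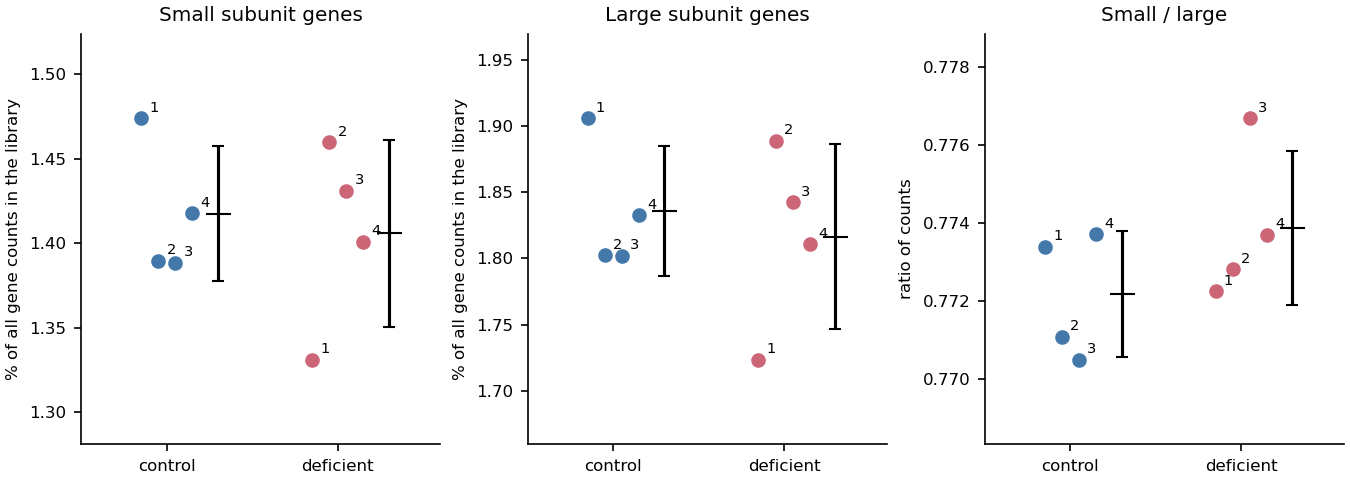
Share of all gene counts in small and large subunit ribosomal protein genes (%), and the ratio of their counts, in each library (points, numbered by replicate), with the mean and SD (n = 4) beside each group. The axes do not start at 0. Deficient 1 is lowest and control 1 highest in both shares, and the ratio stays between 0.770 and 0.777.

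The level of each message was compared within controls per length, as CPM per kilobase of the principal GENCODE transcript. The most abundant canonical message was Rps15 at 1299.9 ± 24.9 CPM per kb, followed by Rps9 at 1179.7 ± 20.9, Rplp0 at 1123 ± 22.9, Rps27 at 1115 ± 58.7 and Rps14 at 1079 ± 13.6 (SD, n = 4). Rplp0 encodes the base of the ribosomal stalk that recruits elongation factors. Rplp0 and Rps27 differed by less than the SD of Rps27. The median over canonical genes was 464 CPM per kb and the lowest were Rpl24 at 43.9, Rps15a at 57.6, Rps20 at 82.5 and Rpl5 at 127 CPM per kb. For Rps15a and Rps20 the principal transcripts are 5130 and 3706 bases, long for this family, and their plain levels were 296 ± 10.7 and 306 ± 10.6 CPM, so that the value per length rests on that annotation. Among tested members the lowest were the pseudogene loci Rps3a3 at 0.332, Rpl6l at 3.05 and Rps4l at 9.02 CPM per kb.

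Many ribosomal protein genes have processed copies elsewhere in the genome, so reads may map to more than 1 place. Of the words of 50 bases in a canonical transcript, a median of 56.6% also occurred in the transcript of another annotated gene, and 98.6% in Rps27, the highest, where 9 other genes shared them. Rpl24, with the lowest level per length, shared 81.7%, and Rps15, with the highest, 39.0%. Over the 77 canonical genes the Spearman correlation of the shared percentage was -0.043 with control level per kb and -0.199 with the log2 fold change, given as a description of genes in the same libraries. The sources used here do not state how reads with several matches were counted, and the levels of genes with high shared percentages are uncertain. Rows named -ps held 0.00763% to 0.00885% of counts.

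**Figure D2:**
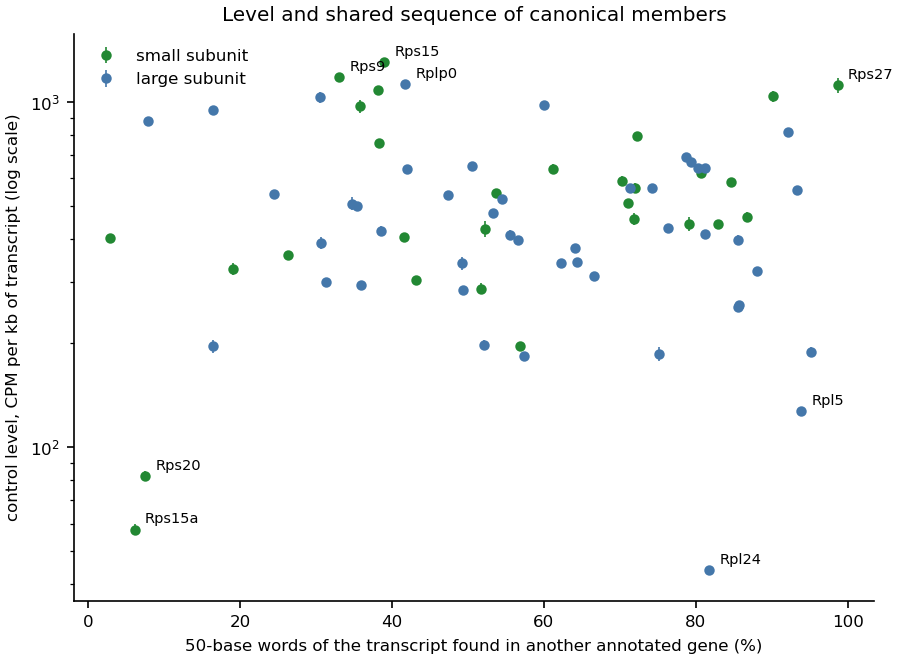
Control level of 75 canonical genes (CPM per kb of transcript, mean and SD of 4 libraries, log axis) against the percentage of 50-base words shared with another annotated gene. Rps15 and Rps27, at 1299.9 and 1115 CPM per kb, share 39.0% and 98.6%, and the 4 lowest genes span 6.14% to 93.8%.

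Between genotypes, no ribosomal protein gene passed the threshold, an edgeR adjusted p under 0.05 with adjustment over all 12938 tested genes. The count was 0 higher, against 0.356% of all genes tested, and 0 lower, against 0.518%; in both directions together 0.873% of all genes passed. DESeq2 also called 0 members, against 6.52% of all genes, with a smallest adjusted p of 0.0549. At an unadjusted p under 0.05 there were 7 members of 83, by either tool, against 24.0% of all genes. These 7 comprised Rps27l and Rpl7l1, higher in deficient cells, against 11.9% of all genes, and 5 lower, against 12.1%, among them Rpl17, Rpl35a, Rps14 and Rpl10. The 4 members that failed the filter had at most 17 counts in any library.

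The intervals around these fold changes were narrow. Over the 75 canonical genes shown, estimates ran from a log2 fold change of -0.10 for Rpl17 to 0.10 for Rpl41, that is from 93.4% to 107% of the control level. Their 95% intervals together reached from 87.8% to 120% of the control level, and the interval held 0 in 72 of all 77. In 75 of 77 canonical genes, or 97.4%, the estimate was within 0.1 of 0 on the log2 scale, as it was in 46.5% of all tested genes and in 60.5% of the 5788 other genes within the same range of control levels. That range ran from Rpl24 at 29.7 CPM, with Rpl38 next at 71.9 CPM, to Rplp0 at 1525 CPM. Levels were not matched within it, and the median standard error was 0.044 for canonical genes and 0.053 for the 5788. The part of level in the contrast was not tested. The median log2 fold change was -0.01 over members, -0.01 over the small subunit, -0.02 over the large subunit and 0.00 over all tested genes. Of the canonical genes, 26 estimates were above 0 and 51 below. The median standard error was 0.045 for members and 0.077 for all tested genes.

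**Figure D3:**
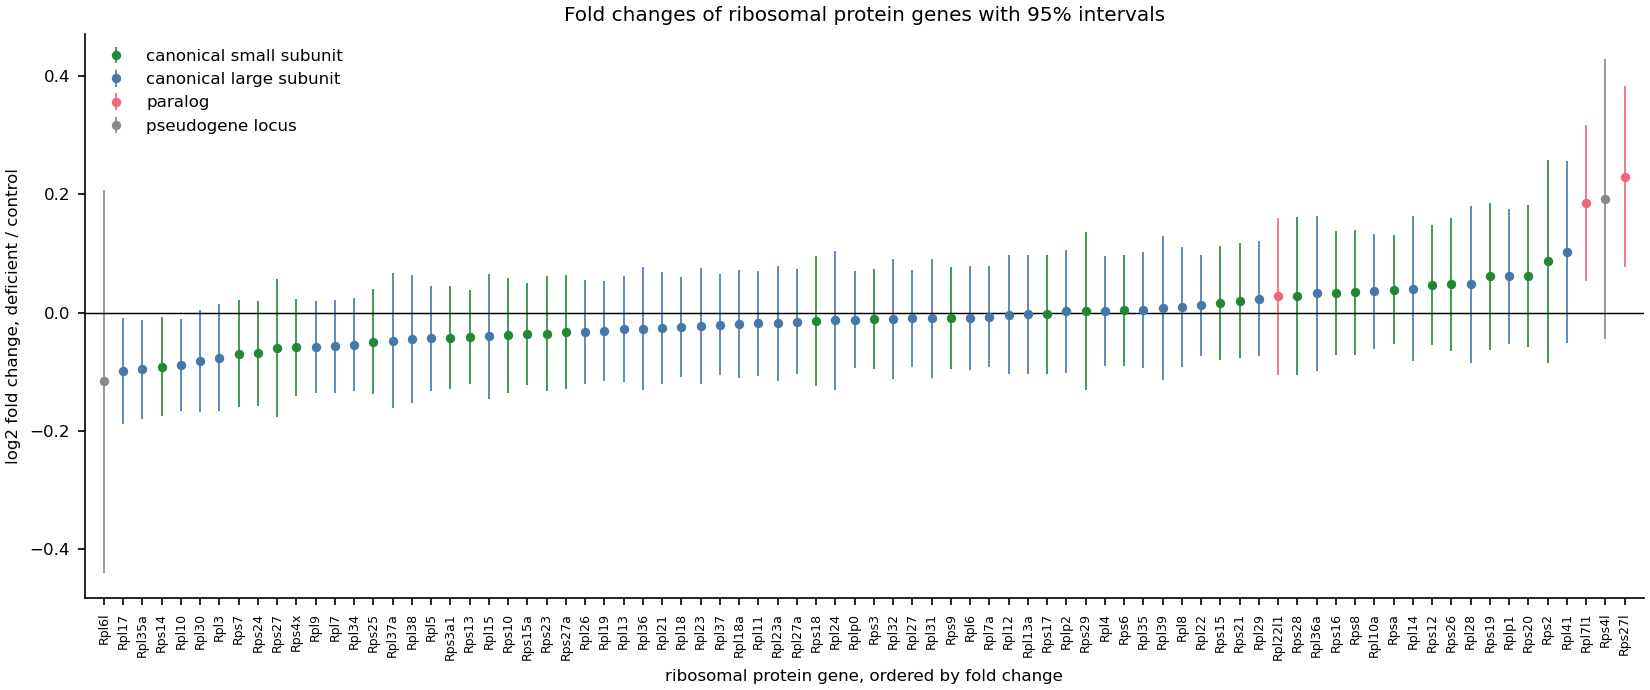
Log2 fold change of deficient over control for 80 tested members, ordered by size, with 95% intervals and colours for subunit and class. The canonical genes lie between -0.10 and 0.10, and Rps27l and Rpl7l1 lie above them at 0.23 and 0.19. Rps3a3, at 0.58 with an interval from -0.23 to 1.40, is left off for scale.

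The groups failed to overlap, with all 4 deficient libraries lower, in 6 of 83 members (Rpl10, Rpl34, Rpl35a, Rpl7, Rpl9 and Rps14), against 6.70% of all genes. This count is near that share and is not read as a result about the members. With all 4 deficient libraries higher there were 0 members, against 5.93%. Rpl10, a large subunit protein near the catalytic centre that joins late in assembly, was at 661, 656, 645 and 657 CPM in controls and at 609.7, 602, 617 and 634 CPM in deficient libraries. Every deficient value was below every control value, and the log2 fold change was -0.09 (SE 0.036, adjusted p = 0.162). Rps14, a small subunit protein whose loss in human bone marrow is linked to anemia, was at 651, 635, 641 and 651 CPM in controls and 599, 581, 631 and 609 CPM in deficient libraries, and the highest deficient value lay just under the lowest control value. Its log2 fold change was -0.09 (SE 0.038, adjusted p = 0.175).

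Rpl35a, of the large subunit, was at 261, 255, 253 and 261 CPM in controls and 234, 247, 247 and 236 CPM in deficient libraries. Its groups did not overlap, and the log2 fold change was -0.10 (SE 0.038, adjusted p = 0.156). Rpl17 had a log2 fold change of -0.10 as well (SE 0.041, adjusted p = 0.170) with overlapping groups, since control 2 at 516 CPM was below deficient 3 at 527 CPM. Rpl3, a large subunit protein at the catalytic centre, had -0.08 (SE 0.042, adjusted p = 0.284) and overlapped.

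At the other end, Rpl41, the smallest protein of the large subunit, was at 350.0, 336, 342 and 359 CPM in controls and at 325, 430.4, 366 and 368 CPM in deficient libraries. The deficient libraries held both the lowest and the highest value, and the estimate was 0.10 (SE 0.070, adjusted p = 0.388). Rps2, near the decoding site of the small subunit, was at 464, 457, 431 and 419.8 CPM in controls and 409, 540.4, 438 and 492 CPM in deficient libraries, with the same 2 libraries at the extremes. Its log2 fold change was 0.09 (SE 0.078, adjusted p = 0.519). These were the most variable canonical genes in deficient cells, with coefficients of variation of 11.6% and 12.4%, against 2.95% and 4.74% in controls.

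Rps6, Rpl5, Rpl11, Rps19 and Rpl38, picked for known roles in signalling, disease or patterning, had estimates between -0.04 and 0.06. Rps14, linked to anemia as given above, was not among these picks and was at -0.09. Rps6 was at 528, 515, 503 and 505 CPM in controls and 479, 534, 521 and 522 CPM in deficient libraries, so that the deficient values spanned the whole control range. Its log2 fold change of 0.0036 (SE 0.043, adjusted p = 0.970) took the opposite sign when scaling factors were computed without the members. Rpl5 and Rpl11, which bind Mdm2 when ribosome assembly is disturbed, had log2 fold changes of -0.04 (SE 0.041, adjusted p = 0.532) and -0.02 (SE 0.041, adjusted p = 0.818). Rps19, mutated in human Diamond-Blackfan anemia, had 0.06 (SE 0.057, adjusted p = 0.533), and Rpl38, known in mice for its part in patterning the skeleton, had -0.04 (SE 0.050, adjusted p = 0.606).

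Variation between libraries was shared by most members, and deficient libraries held both ends of it. Deficient 1 was the lowest library for 60 of the 77 canonical genes and was above the mean of the 8 libraries for 0 of them. Deficient 2 was the highest for 38, control 1 for 22 and control 4 for 12. Across the 2926 pairs of canonical genes the median Pearson correlation over 8 libraries was 0.646, and 94.1% of correlations were positive; on deviations from group means the median was 0.724. The first principal component held 60.9% of their variance. These correlations share library, depth and scaling and are given as descriptions.

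**Figure D4:**
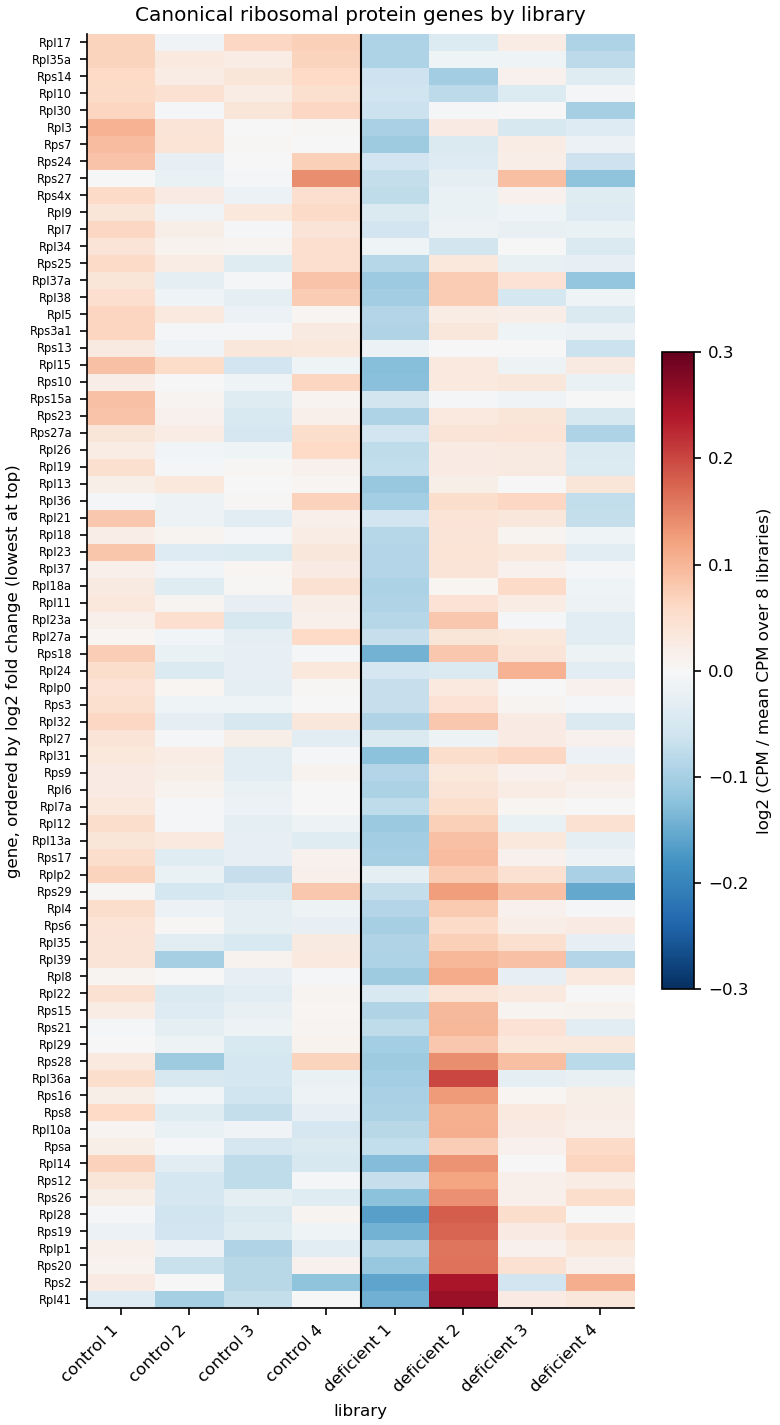
Level of 75 canonical genes in each library as log2 of CPM over the mean of 8 libraries (colour), with genes in order of log2 fold change. Deficient 1 is below the mean in every gene shown, and deficient 2 is the highest library in many.

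The spread of canonical genes within a group was small, and larger among deficient libraries. The median coefficient of variation was 2.56% in controls and 4.71% in deficient libraries, compared with 6.88% and 7.96% over all tested genes and 4.38% and 5.31% over other genes within the same range of levels. Levels were not matched within that range. The chi-square statistic of member counts per degree of freedom is near 1 for counting error alone. It was 2.08 to 5.78 between control libraries and 3.39 to 21.9 between deficient libraries. Over all genes it was 2.88 to 10.2 and 4.54 to 23.4, so larger values between deficient libraries were not particular to the members. Both were highest for deficient 1 against deficient 2. Expected member counts used the member total of each library, so a shift shared by all members does not enter. The statistic also grows with depth. Deficient 2 also had the highest summed level of neutrophil precursor markers, 3171 CPM, and the lowest of erythroid markers, 260.2 CPM. Their part in the spread of the members was not tested. Without deficient 1 the median log2 fold change of members was 0.01, and without deficient 2 it was -0.04, with 0 members past the threshold in either case.

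The largest positive estimates among well expressed members were in paralogs. Rps27l, a close relative of Rps27 known as a p53 target, is at chr9:66946086-66949516 (GRCm38, + strand). It was at 54.3, 52.4, 48.1 and 48.7 CPM in controls and 55.9, 67.5, 54.0 and 61.0 CPM in deficient libraries. Deficient 3 lay just under control 1 and the other deficient libraries above all controls. The means were 50.9 ± 2.94 and 59.6 ± 6.04 CPM (SD, n = 4 each), and the log2 fold change of 0.23 (SE 0.070, 95% interval 0.08 to 0.38) did not pass adjustment (adjusted p = 0.0970). Its estimate was 0.16 without deficient 2.

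Rpl7l1, a relative of Rpl7, is at chr17:46773907-46782672 (GRCm38, - strand). It was at 89.6, 93.0, 83.8 and 84.6 CPM in controls and at 92.1, 107, 93.2 and 107 CPM in deficient libraries. Only deficient 1 overlapped the controls, below control 2. The log2 fold change was 0.19 (SE 0.061, 95% interval 0.05 to 0.32, adjusted p = 0.111). Rpl22l1, the paralog of Rpl22 that is used in developing blood cells of the mouse, was at 21.5, 22.4, 19.7 and 20.2 CPM in controls and 20.5, 22.3, 21.2 and 21.5 CPM in deficient libraries. All its deficient values lay within the control range, and the log2 fold change was 0.03 (SE 0.061, adjusted p = 0.818).

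**Figure D5:**
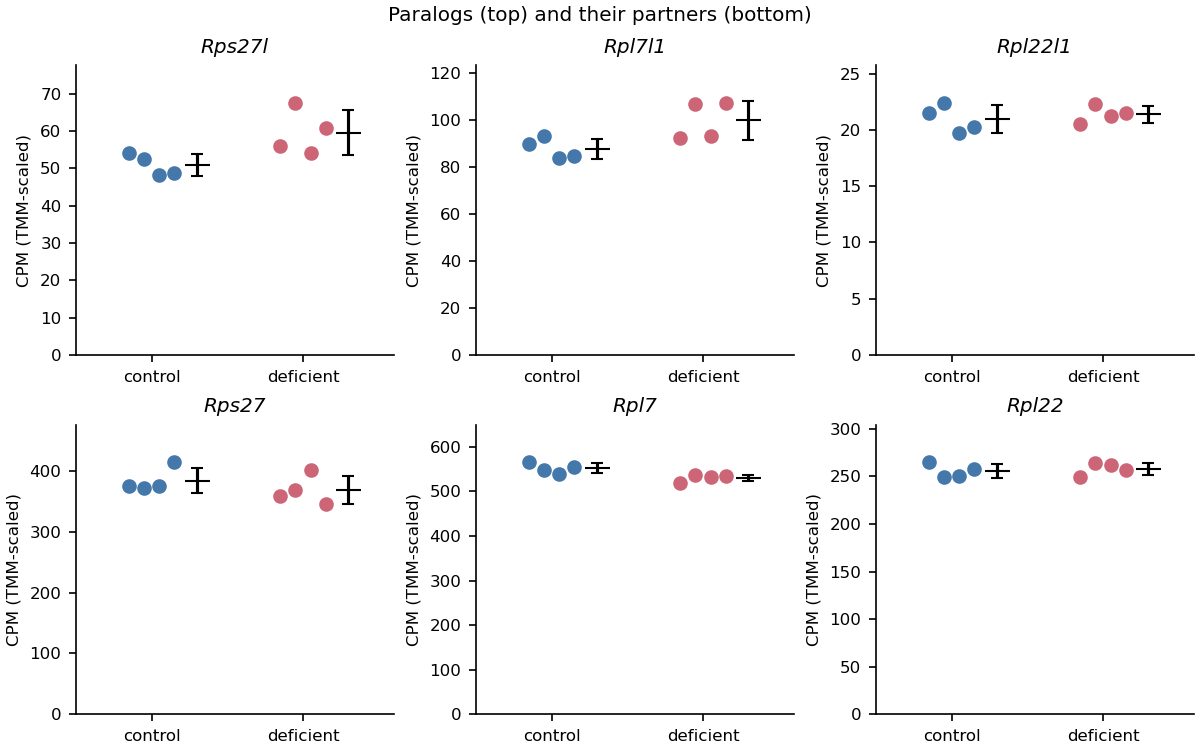
Levels (TMM-scaled CPM, from 0) of 3 paralogs and their partners in each library (points), with mean and SD (n = 4). Rps27l has means of 50.9 and 59.6 and Rpl7l1 of 87.7 and 99.8, neither past the threshold, and the log2 fold changes of Rps27, Rpl7, Rpl22 and Rpl22l1 are closer to 0.

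Set against its partner per length, Rps27l was at 9.17% of Rps27 in controls and 11.2% in deficient libraries, with overlapping groups. Rpl7l1 was at 7.09% of Rpl7 in controls and 8.39% in deficient libraries, and these groups did not overlap. For that pair the partner was lower as well, since Rpl7 was at 566, 548, 539 and 556 CPM in controls and 520.0, 536, 533 and 534 CPM in deficient libraries (log2 fold change -0.06, SE 0.036, adjusted p = 0.351). Rpl22l1 was at 7.04% and 7.12% of Rpl22, and Rpl36al, the paralog outside the rule, at 40.5% and 40.2% of Rpl36a. Because 98.6% of 50-base words of Rps27 occur in other genes, against 22.4% of those of Rps27l, the percentage for this pair depends on how shared reads were counted. The other pairs carry the same limit, with 53.3% of words shared for Rpl7, 65.6% for Rpl22l1 and 85.5% for Rpl36a. Fewer were shared for Rpl7l1, at 9.19%, and Rpl22, at 24.5%. The percentage for Rpl7l1 also rests on a principal transcript of 2606 bases.

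The loci annotated as pseudogenes gave few reads. Rps4l, annotated as transcribed, was at 6.68 to 7.76 CPM in controls and 6.89 to 9.54 CPM in deficient libraries, with the log2 fold change at 0.19 (SE 0.109, adjusted p = 0.301). It was at 1.13% of Rps4x per length in controls and 1.35% in deficient libraries, with overlap. Of the 50-base words of Rps4x, 72.2% occur in other genes, so this percentage too depends on how shared reads were counted. Rpl6l, at 2.21 to 3.07 CPM in controls and 2.15 to 2.61 CPM in deficient libraries, had -0.12 (SE 0.149, adjusted p = 0.663). Rps3a3, at 0.130 to 0.422 CPM in controls and 0.268 to 0.409 CPM in deficient libraries, had an estimate of 0.58 with an SE of 0.374 (adjusted p = 0.357). Its counts were 6, 6, 6 and 4 in controls and 12, 12, 7 and 8 in deficient libraries. It passed the filter on low counts mainly through deficient libraries, where it is higher, so its estimate is not read as a change. Among the untested members Rpl3l, the striated muscle paralog of Rpl3, had 8, 2, 5 and 6 counts in controls and 16, 10, 8 and 17 counts in deficient libraries, and Rpl39l, known from the testis, had 0 to 11 and 1 to 8 counts.

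Canonical genes with a matched RefSeq promoter were set side by side by whether a pyrimidine run lay within 50 bases of the annotated start. Canonical genes without a matched promoter were left out. Because the match depends on that start, it does not show which messages carry or lack a TOP motif. The median log2 fold change was -0.010 over the 48 with a run and -0.013 over the 9 without, and 18 of 48 and 2 of 9 estimates were above 0. The difference was not tested.

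Mitochondrial ribosomal protein genes, which encode the ribosome of another compartment, served as the most similar other set. Of 78 tested, 0 passed the threshold by edgeR and 4 by DESeq2, all higher in deficient cells. DESeq2 called 6.52% of all 12938 tested genes, 395 higher and 448 lower. An unadjusted edgeR p under 0.05 was found for 18, or 23.1%, near the 24.0% of all tested genes; all 18 were higher, a direction taken by 11.9% of all genes. Their estimates were above 0 in 62. Their median log2 fold change was 0.07, against -0.01 for the cytosolic members. They held 0.232% ± 0.00592 of counts in controls and 0.244% ± 0.0128 in deficient libraries (SD, n = 4 each). The difference between the sets was not tested.

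Other genes of translation were taken from 9 lists, some of which share genes, so that their counts are not separate results. Their medians are read against 0.00 over all tested genes, and their counts at an unadjusted p under 0.05 against 24.0%. Better expressed genes leaned higher as a whole. Of the 5788 non-members within the control range of canonical genes, 3300 estimates were above 0, with a median of 0.02. An unadjusted p under 0.05 was found for 1676 of these, 1010 higher and 666 lower. Counts that passed are by edgeR unless DESeq2 is named. They are read against 0.873% of all tested genes by edgeR and 6.52% by DESeq2. Of the ribosome genes outside the rule 0 of 5 passed by either tool and 0 had an unadjusted p under 0.05 (median log2 fold change -0.03). Fau, which encodes a ribosomal protein fused to a ubiquitin-like part, had -0.06 (SE 0.045, adjusted p = 0.443). Of messages outside the ribosome that carry TOP motifs 0 of 18 passed by edgeR (median -0.02) and 2 by DESeq2, Nop53 and Eif3e, both lower. An unadjusted p under 0.05 was found for 5, all lower. Nop53, whose product takes part in assembly of the large subunit, was lower in all 4 deficient libraries, at 397, 395, 411 and 415 CPM in controls and 338, 344, 383 and 352 CPM in deficient libraries (log2 fold change -0.19, SE 0.046, adjusted p = 0.0603). Eif3e had -0.14 (SE 0.041, adjusted p = 0.0836).

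Of 20 genes that control TOP translation, 1 rose and 0 fell by edgeR and by DESeq2, and the median log2 fold change was 0.02. An unadjusted edgeR p under 0.05 was found for 5, 4 higher and 1 lower. Larp1, whose product binds the cap and the TOP motif of ribosomal protein messages, was at 218, 224, 227 and 216 CPM in controls and 262, 294, 253 and 275 CPM in deficient libraries. The groups did not overlap, and the means of 221 ± 5.28 and 271 ± 17.5 CPM (SD, n = 4 each) differed by 0.29 on the log2 scale (SE 0.049, adjusted p = 0.0292). The call was lost without control 1, control 3, control 4 or deficient 4, with adjusted p values of 0.0663, 0.102, 0.113 and 0.138, and without the shallowest library of each group (0.0812), with log2 fold changes of 0.28 to 0.33 in these. All tested neutrophil precursor markers were above and all tested erythroid markers below the control level, as given above, though both sums overlapped between groups. The part of these or other marker lists in the difference of Larp1, or in that of Eif1b, was not tested. Deptor, which restrains mTOR, had -0.22 (SE 0.066, adjusted p = 0.0968).

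Of 39 initiation factor genes, 1 rose and 0 fell by edgeR, and 28 estimates were above 0 (median 0.08). An unadjusted edgeR p under 0.05 was found for 12, or 30.8%, 9 higher and 3 lower. The 3 lower, Eif3e, Eif3f and Pabpc1, are also among the lower TOP messages counted above. By DESeq2, 3 rose (Eif1b, Eif2s1 and Eif4g2) and 1 fell (Eif3e). Eif1b, a relative of the start codon scanning factor Eif1, was at 48.2, 43.7, 46.9 and 45.6 CPM in controls and 52.4, 56.0, 54.0 and 56.2 CPM in deficient libraries. The groups did not overlap, with the log2 fold change at 0.25 (SE 0.048, adjusted p = 0.0459). The call was lost without control 1, control 3, control 4, deficient 2 or deficient 4, with adjusted p values of 0.0684, 0.126, 0.153, 0.0765 and 0.173, and without the shallowest library of each group (0.106). Eif2s1, the factor subunit phosphorylated in stress, had 0.21 (SE 0.052, adjusted p = 0.0654).

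The remaining lists gave 0 genes past the threshold by edgeR, and by DESeq2 Mxi1, Sesn1 and Trp53inp1, all lower. In the elongation factor list, which also holds genes that are not themselves elongation factors, the median of 11 genes was -0.04. An unadjusted p under 0.05 was found for 4, 2 higher and 2 lower. The lower were Eif5a2 at -0.34 (SE 0.111, adjusted p = 0.107) and Gtpbp1 at -0.13 (SE 0.043, adjusted p = 0.115). The higher were Eef1e1 at 0.27 (SE 0.095, adjusted p = 0.124) and Eif5a at 0.15 (SE 0.060, adjusted p = 0.150). Of 14 genes for transcription of ribosomal protein genes (median 0.07), 6 had an unadjusted p under 0.05, 4 higher and 2 lower, and Mxi1, a Max partner, had -0.14 (adjusted p = 0.0796) and Myc 0.31 (adjusted p = 0.132). Of 15 genes that escort ribosomal proteins or assemble subunits (median 0.06), 6 did, 5 higher and 1 lower, with -0.24 for Nmd3, the export adaptor of the large subunit (adjusted p = 0.102), and 0.15 for Nob1, which trims the small subunit RNA (adjusted p = 0.145). Of 21 p53 targets and regulators (median -0.05), 6 did, 1 higher and 5 lower, and 9 estimates were above 0; Sesn1 had -0.25 (adjusted p = 0.0585) and Trp53inp1 -0.42 (adjusted p = 0.0736). Of 19 genes of ribosome stalling and rescue (median 0.00), 6 did, 4 higher and 2 lower, with 0.17 for Abce1, which splits ribosomes (adjusted p = 0.0970), and 0.17 for Edf1, which binds collided ribosomes (adjusted p = 0.0991).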

How the data were processed

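Messenger RNA was measured in 8 libraries, 4 per genotype, grouped by the genotype label. The authors deposited raw counts per gene, according to the file headers. GRCm38, cutadapt, STAR 2.7.3a, HTSeq 0.12.4 and DESeq2 are named in the submitters' processing notes. No source used here states strand or how multiply matching reads were counted, so reads of antisense or near-identical genes cannot be told apart. A further 8 columns of normalized values were not used, and a row for Cre was kept out of totals and tests. The lowest maximum count of a listed gene is 6.

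Counts were filtered (filterByExpr, minimum count 10, total 15), TMM-scaled and fitted over all 12938 genes by robust quasi-likelihood in edgeR 4.0.16 (R 4.3.3) on genotype. A two-sided Benjamini-Hochberg adjusted p under 0.05 passed. Standard errors come from the F statistic and 95% intervals from its degrees of freedom; the procedure was tested on simulated data. CPM values are TMM-scaled. Depth was at least 14231121 counts, and every replicate pair differed by more than counting error. The labels give no batch or litter and do not say that replicates are separate animals, and p-values reflect only how these libraries vary. Lengths, positions and shared 50-base words are from GENCODE M21 (GRCm38), which placed 12920 tested genes. Alternatives were other scaling, DESeq2 1.42.0, no filter, and leaving out libraries.

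The members, lists and tests were chosen with earlier results of these data known. Named genes are the 6 highest and 6 lowest tested members by log2 fold change, the 6 highest and 3 lowest by level per length, paralogs with partners, Rps6, Rpl5, Rpl11, Rps19 and Rpl38, and of each list those that passed (up to 3) or, with fewer than 2, the 2 with the smallest p. Rpl9, Rpl34, Rpl24, Rps15a, Rps20, Eef1e1, Eif5a, Eif4g2, Eif3f, Pabpc1 and the untested members were named after their values were seen. A few genes that these rules pick are not reported here.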

Additional observations from a re-analysis of the deposited data

Results flagged for a closer look

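In 7 of 102 groups of 4 libraries examined among the named genes, 1 library stood far from the other 3; chance gives about 1 in 20 groups. For members these were Rps3a3 in deficient 4 (0.268 CPM, others 0.390 to 0.409), Rpl17 in control 2 (516 CPM, others 542 to 546), Rps9 in deficient 1 (830.4 CPM, others 891 to 903) and Rps27 in control 4 (415 CPM, others 372 to 376). The deficient values of Rps3a3 rest on only 7 to 12 counts. For genes of the lists they were Eif5a2 in control 3 (5.62 CPM, others 7.58 to 7.91) and in deficient 2 (6.09 CPM, others 5.56 to 5.59), and Abce1 in control 1 (84.3 CPM, others 77.0 to 77.5). Rps9 in deficient 1 is part of the low level of canonical members in that library, which was the lowest for 60 of 77 of them.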

How the results depend on the processing

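The count of 0 members past the threshold, in either direction, held under every alternative run. Among all genes the count of 113 became 843 with DESeq2, 1 without the shallowest library of each group, and 1 to 522 when a library was left out in turn, lowest without control 1 and highest without deficient 1. With a library left out, the median log2 fold change of members ran from -0.035 (without deficient 2) to 0.00783 (without deficient 1), and was also above 0 without control 1 (0.00115). Without the shallowest library of each group it was -0.038. The difference in the share of counts stayed within 1 SD, between -0.073 and 0.025 percentage points when a library was left out. With a library left out the log2 fold change took both signs for Rps6 (-0.016 to 0.034), Rpl22 (-0.00328 to 0.029), Rpl39 (-0.027 to 0.039), Rps9 (-0.024 to 0.016), Rplp0 (-0.025 to 0.00706), Rpl11 (-0.037 to 0.00630), Rps15 (-0.015 to 0.046), Rpl36al (-0.062 to 0.070) and Rpl36a (-0.036 to 0.069). Rps6 was at -0.000276 with TMM factors computed without the members, and Rps6, Rpl22 and Rpl39 at -0.013, -0.00571 and -0.017 without the shallowest pair. The cause was not tested. Over 47 named genes, 562 of 609 values kept direction and side of the threshold, 20 changed sign, 16 lost a call and 11 gained it. With DESeq2 the gains were Eif2s1, Nop53, Eif3e, Mxi1, Sesn1 and Trp53inp1. No paired analysis was possible because the labels give the groups no number in common, and the numbers used here only follow accession order. Depth limits the pseudogene loci and untested paralogs, while for canonical genes the spread between libraries, not counting, sets the error.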
